A study of Mus musculus with 4 samples.

Results

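The genes described here encode collagens, laminins, integrins and cadherins, the proteins by which cells hold on to matrix and to each other, and the data are the m6A peaks listed for them in mouse embryonic stem cells. Members were chosen by gene symbol alone: numbered collagen chains, laminin chains, integrin subunits, Cdh cadherins, all protocadherins, Celsr1 to Celsr3 and Fat1 to Fat4. The rule found 63 genes with a peak in at least 1 library, of 9949 genes in all. They were 11 collagens, 4 laminins, 8 integrins, 6 Cdh cadherins, 21 gamma protocadherins, 6 other protocadherins, 6 Celsr and Fat genes, and Col4a3bp. Col4a3bp encodes a ceramide transfer protein and belongs to the group by its name only.

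N6-methyladenosine (m6A), a methyl group on adenosines of RNA, was mapped by MeRIP-seq, in which fragmented total RNA is enriched with an anti-m6A antibody and sequenced. Embryonic stem cells of strain C57BL/6N were compared as 2 wild-type libraries and 2 Mettl5-/- libraries, which lack the methyltransferase that marks 18S ribosomal RNA. The comparison asks which m6A peaks differ without Mettl5. The labels also describe differentiation of the cells, yet give embryonic stem cells as the source of every library, and the comparison was made on that source. They do not say how the knockout was made. Nor do they tell whether both libraries of a group were grown apart or derive from different clones, and p-values therefore measure only the spread between these libraries, which could be technical. The submitters named the wild-type libraries Ctr and WT, so these could be unlike controls, which was not tested. Both carry the wild-type genotype label, by which they were grouped, and their numbers 1 and 2 were given here. In what follows, values for the 4 libraries are given in the order wild type 1, wild type 2, knockout 1 and knockout 2.

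Collagens are trimeric matrix proteins, and laminins are trimers of an alpha, a beta and a gamma chain that build basement membranes. Integrins are dimers of an alpha and a beta subunit that bind such matrix on the outside and link to actin on the inside. Cadherins join neighbouring cells. Celsr and Fat proteins are giant cadherins of planar cell polarity and growth control. Protocadherins are encoded largely in the alpha, beta and gamma clusters, where each alpha and gamma gene has its own large first exon that is spliced to exons shared by the whole cluster. In mRNA, m6A is placed mainly by the Mettl3 and Mettl14 complex at sites with the core GGAC, often in long exons and near stop codons, and it is read by proteins that affect the decay and translation of the RNA.

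The peaks of Itga3 and Col13a1 could be tied to RefSeq sequence at the start of their transcripts. The 5' UTR peak of Itga3, the integrin alpha 3 subunit that binds laminins, crossed an exon junction in all 4 libraries. A stretch of 30 bases in the upstream exon part of that peak is shown because all 4 libraries covered it. It lies in the 5' UTR class of the listed peak at chr11:95076768-95076797 on the minus strand of GRCm38.p6, is credited to RefSeq, and is written 5′ to 3′ with the motif GGAC in capitals.
Itga3: ggaaagcggagcccGGACtgggcgcgcaag
The stretch was placed so as to hold the motif, so its presence there is no finding. GGAC, searched on the transcript strand, occurred in 11.7% of the last 30 bases of 32851 RefSeq promoter windows, and in 21.2% when either strand was searched. The stretch shown does not lie at the end of its own window, so these shares are for another position. Of the whole windows of 300 bases, 65.6% held GGAC. Of the promoter windows of members with a 5' UTR peak, that of Col13a1 had 50 bases inside the peaks of all libraries, and these held 0 GGAC. A motif match is a description and not a methylated site.

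The lists held 11696, 11201, 12699 and 10821 peaks, of which 110, 104, 113 and 100 belonged to the members. Neither read depth nor RNA level was analysed here. A gene without a peak may be unmethylated, weakly expressed or missed, and these cannot be told apart. Each fold enrichment and p-value was computed by the authors for that peak. Since each list was made from its own library, a fold or rank that is higher in one list shows no change of methylation. Strength is the percentile of a peak's p-value within its own list, 100 being the strongest, and the strongest peak of a gene stands for it. Among markers of the labelled cell type, 10 of 12 embryonic stem cell genes had a peak, 8 of them in all libraries, among them Pou5f1, Sox2, Klf4 and Esrrb. No peak of Nanog or Zfp42 was among those analysed, nor was one of Mettl5, so the knockout could not be checked in these lists. Of the markers of other cells, 4 of 10 for primitive and parietal endoderm, 2 of 10 for feeder fibroblasts and 4 of 8 for neural cells had a peak, and 2 of each list had one in all libraries. Among these were neural Sox1 and Nes and feeder Pdgfrb, at percentiles of 83.2 or more in every list. They ranked above Pou5f1 (25.2 to 67.3) and Dppa4 (4.49 to 73.9) and near Lin28a (87.7 to 93.8). Sox2, Klf4, Esrrb, Tdgf1 and Fgf4 ranked above them, at 95.1 or more in every list. The part of such other cells in the results was not tested.

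Families differed in how many of their genes had a peak. By the RefSeq gene table, 186 mouse gene symbols match the name rule and 62 of them (33.3%) had a peak, while 8247 of 21900 protein-coding genes (37.7%) did. All 3 Celsr genes, 3 of 4 Fat genes and 21 of 22 gamma protocadherins were listed. Among integrins the counts were 5 of 18 alpha genes and 3 of 8 beta genes. Laminins came to 4 of 11 genes, with 0 of 5 alpha chains. Collagens came to 11 of 44 genes and Cdh cadherins to 6 of 23. The neighbouring alpha and beta protocadherin clusters had 2 of 14 and 1 of 22 genes listed. No peak of Itgb1, the beta subunit shared by most matrix-binding integrins, was among those analysed, and the same holds for Itga5, Lama1, Lama5, Cdh2, Fat4, Col1a1, Col1a2 and Col3a1.

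**Figure D1:**
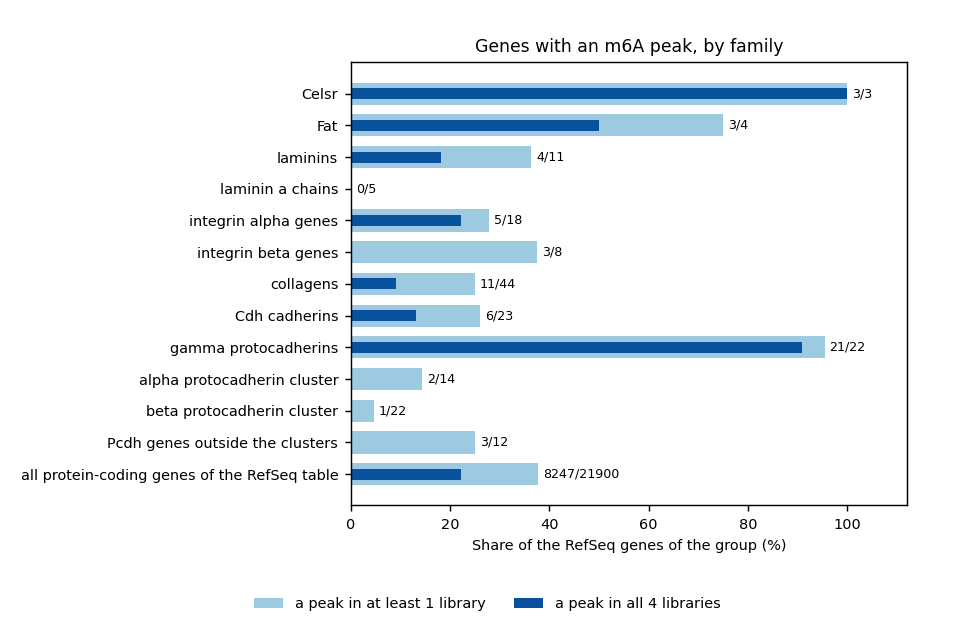
Share of the RefSeq genes of each family that had an m6A peak in at least 1 library (light bars) and in all 4 libraries (dark bars), in percent, with the counts beside each bar. Celsr genes (3 of 3) and gamma protocadherins (21 of 22) stand at the top of the scale, laminin alpha chains (0 of 5) and beta-cluster protocadherins (1 of 22) at the bottom, and all protein-coding genes at 37.7%.

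Of the 63 genes, 39 had a peak in all 4 libraries, which is 61.9% beside a background of 57.1% over all listed genes. Of the gamma protocadherins 20 of 21 genes were in all libraries, and of the other members 19 of 42 (45.2%). In all libraries were also 5 of 6 Celsr and Fat genes, 4 of 8 integrins, 2 of 4 laminins, 3 of 6 Cdh cadherins and 4 of 11 collagens, but 0 of 6 other protocadherins. Members listed in more libraries had stronger peaks. The median mean percentile was 66.3 for members in 4 libraries, 24.4 in 3, 13.9 in 2 and 12.6 in 1, beside 66.4, 32.5, 23.3 and 16.8 for all genes. The members' best peaks had median percentiles of 55.8, 53.2, 65.7 and 60.7, beside 59.6, 59.1, 59.9 and 59.1 over all genes. Peaks in the strongest 10% of their list were held in all 4 libraries by Celsr1, Fat1, Itga3 and Itga6, and in 1 library each by Cdh1, Itga9 and Col18a1. Only 5.45%, 3.85%, 5.31% and 4% of member peaks lay there, beside 10% of all peaks by definition. Gamma protocadherins had 0 such peaks, and without them the member shares were 11.3%, 7.69%, 10.3% and 8.51%.

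**Figure D2:**
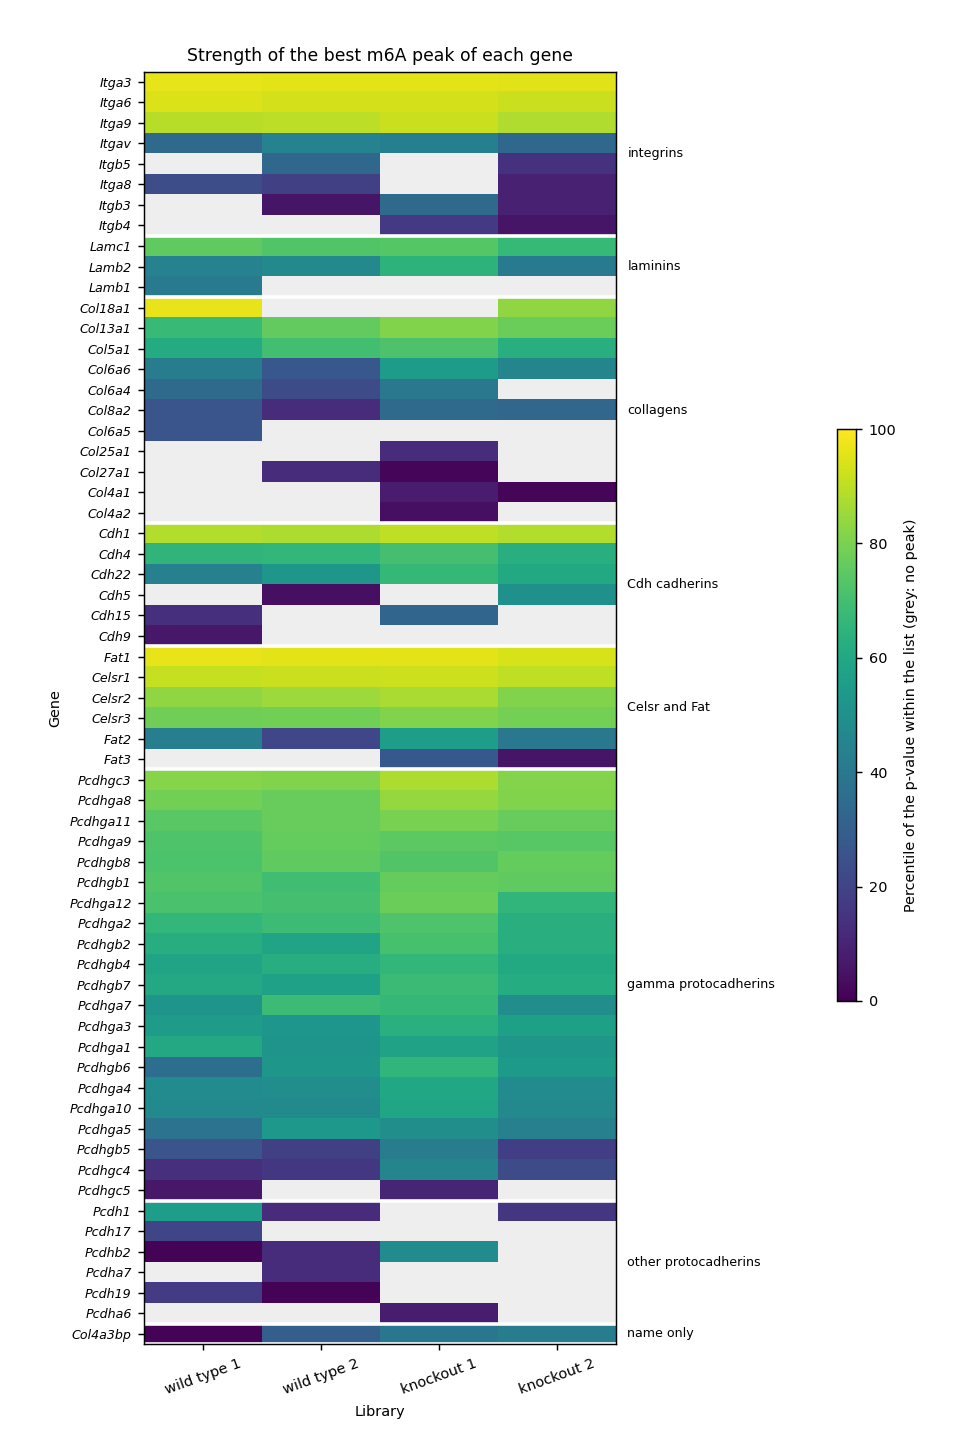
Strength of the best m6A peak of 62 of the 63 genes (rows, grouped by family) in the 4 libraries (columns), as the percentile of its p-value within the list, with grey for no peak. Itga3, Itga6, Celsr1 and Fat1 are near the top of the scale in every column, the gamma protocadherins fill nearly every cell, and the other protocadherins are mostly grey or dark.

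Among the receptors, 3 integrin alpha genes had strong 3' UTR peaks in every library. Itga3 had folds of 2360, 1290, 486 and 689 at percentiles 96.2, 96.0, 95.9 and 95.5. The peak was in the strongest 10% of every list. Its 5' UTR peak, shown above by sequence, was weaker, with folds of 23.9, 61.4, 24.0 and 5.23 at percentiles 49.0, 55.7, 48.2 and 32.4. Itga6, the alpha 6 subunit of laminin receptors and a surface marker of stem cells, had 1 peak per library across an exon junction into the 3' UTR, at chr2:71854906-71857397 in wild type 1 and both knockout libraries. Its folds were 1500, 1180, 619 and 270 and its percentiles 94.8, 93.4, 93.7 and 91.9. Itga9, a subunit that binds tenascin and other matrix ligands, had folds of 601, 132, 534 and 463 for its best peak, at percentiles 89.1, 89.9, 91.8 and 88.2. Its signal was split into 2 peaks in each wild-type library and was 1 peak in each knockout library, and all of them fell in a single region.

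The other integrins were weak. Itgav, the alpha v subunit that binds RGD ligands such as vitronectin, had a 3' UTR peak with folds of 16.6, 33.3, 11.2 and 20.9 at percentiles 34.7, 44.3, 43.0 and 33.9. It also had a 5' UTR peak with folds of 9.40, 10.4, 12.0 and 17.2. Itga8 was listed in 3 libraries and not in knockout 1, with folds of 12.3, 11.8 and 9.71. No beta subunit was in all libraries. Itgb3, the partner of alpha v, was listed in wild type 2, knockout 1 and knockout 2 with folds of 8.88, 15.2 and 9.71, and Itgb5 in wild type 2 and knockout 2 with folds of 3.70 and 2.65. Itgb4, the beta subunit of hemidesmosomes, is given with the genotype comparison.

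Of the matrix genes, laminins were led by Lamc1, the gamma 1 chain found in most laminins. Its 3' UTR peak had folds of 34.2, 68.1, 84.1 and 13.4 at percentiles 75.7, 72.8, 73.7 and 67.0. A second peak lay at its other end, in coding sequence 270 to 300 bp from the RefSeq start, with folds of 10.7, 11, 9.08 and 6.42. Lamb2 had a peak in the last part of its coding sequence that crossed exon junctions in every library, with 3, 3, 5 and 3 exon blocks and folds of 4.54, 31.1, 10.2 and 17.2. Lamb1, the beta 1 chain that pairs with Lamc1 in early basement membranes, was listed in wild type 1 alone, with a fold of 21.7 at percentile 41.0.

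Collagens in all libraries were Col13a1, Col5a1, Col6a6 and Col8a2. Col13a1, a collagen anchored in the cell membrane, had its peak at the start of the transcript, 98 bp from the RefSeq start and classed as 5' UTR. The folds there were 70.1, 66.6, 116 and 74.0, and in knockout 2 a neighbouring coding peak of fold 105 was the stronger. Col5a1, a chain of type V collagen of fibrils, had a 3' UTR peak with folds of 68.0, 155, 52.5 and 97.9 at percentiles 61.7, 69.8, 71.9 and 63.2. Col6a6 had 2 coding peaks in every library, the better with folds of 23.1, 14.8, 36 and 36.6. Col8a2 had a 3' UTR peak with folds of 13, 10.4, 15.2 and 20.2. Best percentiles were 42.1, 27.0, 54.7 and 45.6 for Col6a6 and 26.4, 12.6, 34.6 and 33.1 for Col8a2.

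Col18a1, the basement membrane collagen that releases endostatin, gave the strongest collagen peak, but in wild type 1 alone. In wild type 1 a peak of 8 exon blocks had a fold of 203 at percentile 96.7. In knockout 2 a peak of 2 blocks, 299 bp from the RefSeq end of the gene, had a fold of 38.7 at percentile 83.5. These peaks shared no region, and neither was in another library. Col4a1 and Col4a2, the type IV collagen chains of basement membranes that lie head to head on chromosome 8, had only weak 3' UTR peaks. Col4a2 was listed in knockout 1 alone with a fold of 8.01 at percentile 3.99. Of the other collagens, Col6a4 was listed in 3 libraries and not in knockout 2, with best folds of 16.6, 13.3 and 17.6. Col27a1 was listed in wild type 2 and knockout 1 with folds of 10.4 and 7.21. Its knockout 1 peak was 1 of 4 member peaks in that list whose adjusted p-value from the authors was 0.05 or more. Each other list had 0 such member peaks. Col6a5 in wild type 1 (fold 13) and Col25a1 in knockout 1 (fold 9.61) were each in 1 library. Weak peaks often shared their values: in wild type 2, Col8a2, Col27a1, Pcdh1 and Pcdhb2 each had a fold of 10.4 and a percentile of 12.6.

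Of the Cdh cadherins, Cdh1, the E-cadherin that holds stem cell colonies together, had the strongest peak. It covered 1017 to 1137 bases of the 3' UTR, the longest at chr8:106669080-106670216. The folds were 22.9, 14.3, 37.7 and 27.2 and the percentiles 88.4, 87.8, 90.6 and 88.4, so the rank was high in each list on a moderate fold. Cdh4, or R-cadherin, had 3' UTR folds of 86.0, 117, 100 and 95.6 at percentiles 65.4, 66.3, 70.6 and 62.9. Cdh22 had 3' UTR folds of 25.3, 53.3, 76.1 and 83.7 at percentiles 43.6, 53.1, 66.5 and 60.7. Cdh5, the cadherin of endothelium, was listed in wild type 2 and knockout 2 with folds of 6.66 and 47.1. Cdh15 was listed in wild type 1 and knockout 1 with folds of 10.1 and 14.4, and Cdh9 in wild type 1 alone with a fold of 8.68.

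The giant cadherins carried many peaks each. Celsr3 had 23 peaks summed over the libraries, the most of any member, Celsr1 had 18 and Celsr2 had 16. Of the 57 Celsr peaks, 36 lay within 4000 bp of the RefSeq start, 18 within 4000 bp of the RefSeq end and 3 elsewhere, by genomic distance. Celsr1, a planar polarity protein, had its best peak in coding sequence near the start, with folds of 390, 1160, 511 and 306 at percentiles 91.2, 92.0, 92.4 and 90.5. Its best 3' UTR peak had percentiles of 85.7, 87.7, 89.6 and 85.7. Celsr2 had folds of 304, 560, 440 and 177 near the start at percentiles 83.3, 85.4, 87.2 and 80.9, and its 3' UTR peak had percentiles of 75.1, 75.0, 83.2 and 70.4. Celsr3 had folds of 224, 311, 234 and 120 near the start at percentiles 78.4, 78.6, 81.0 and 79.1. Its 2 peaks near the end were in 3 libraries, at best percentiles of 46.4, 29.7 and 48.2, and in knockout 2 no peak lay there.

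The Fat genes had no peak within 4000 bp of the RefSeq start, by genomic distance, which counts introns. Fat1, which restrains growth and organises actin, had a coding peak across an exon junction 390 to 510 bp from its RefSeq end. The folds were 858, 853, 276 and 825 and the percentiles 96.5, 96.1, 96.0 and 94.0. A second coding peak of Fat1 was in every library with folds of 37.6, 79.2, 207 and 38.7. A further peak of 1860 bases at percentile 95.5 was in wild type 1 alone. Fat2 was weak, with best folds of 23.9, 12.6, 38.4 and 28.4 at percentiles 42.6, 21.1, 55.7 and 40.1.

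**Figure D3:**
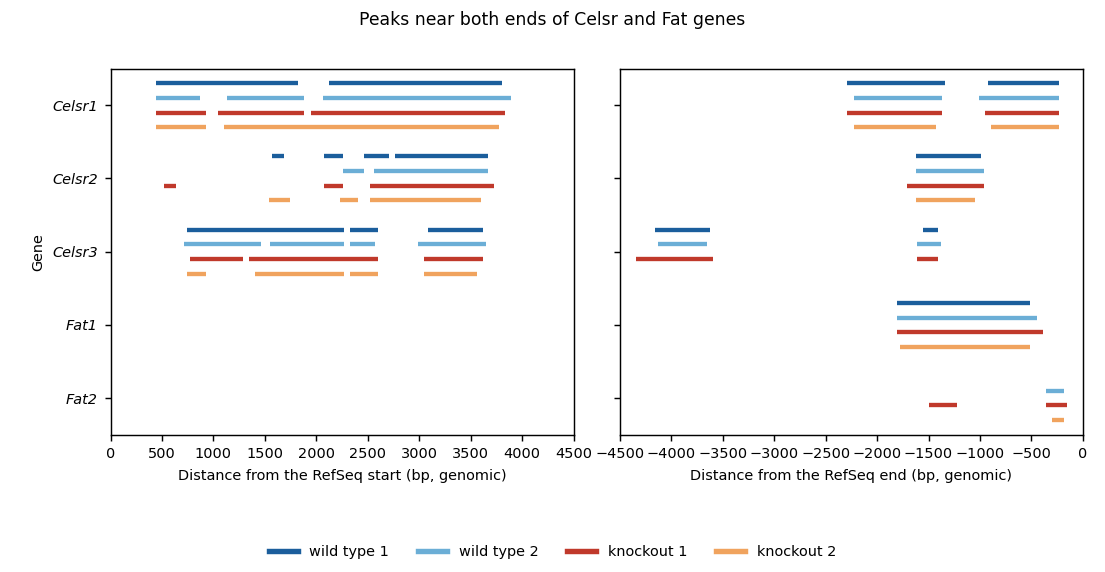
Peak spans of Celsr and Fat genes by library (colours) within 4500 bp of the RefSeq start (left) and of the RefSeq end (right), in bp of genomic distance; peaks elsewhere, among them all Fat3 peaks, are not drawn. All 3 Celsr genes have peaks near the start in every library, and Fat1 has none there and 1 strong peak near its end.

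The gamma protocadherins, known for giving neurons a surface identity, formed the most uniform family. Their 21 genes had 57, 52, 55 and 53 peaks. Of these peaks 98.2%, 100%, 98.2% and 98.1% were classed as coding, 0 as 3' UTR, and all consisted of 1 exon block. The first peak of a gene began at a median of 116, 118, 86 and 120.5 bp from its RefSeq start. It began within 1000 bp in every listed gene of every library, 21 of 21, 20 of 20, 21 of 21 and 20 of 20. The best peak began within 1000 bp in 15, 14, 18 and 17 genes. Past the last variable exon, in the exons shared by the whole cluster, 0 peaks were listed in each library. How the peak caller treats exons shared by many genes is not given. Unmethylated and missed sites there cannot be told apart. Pcdhga6 was the only gene of the cluster with no peak among those analysed.

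Within the cluster, Pcdhgc3 had the strongest mean percentile (83.1), with best folds of 103, 351, 101 and 87.4. Its best peak began 46 bp before the RefSeq start in 3 libraries and 16 bp before it in wild type 1, and ran for 1375 to 1495 bases. Pcdhga8 followed at a mean percentile of 80.2, with folds of 155, 167, 192 and 344. Its coding exon was covered by 3 peaks in wild type 1, 2 in knockout 1 and a single peak in wild type 2 (2036 bases) and in knockout 2 (2126 bases). Pcdhga11 had a mean percentile of 76.9 with folds of 164, 231, 198 and 172, and Pcdhga9 had 74.5 with folds of 73.0, 255, 99.3 and 205. Most other members of the cluster in all libraries lay between Pcdhgb8 (74.1), a polymorphic pseudogene, and Pcdhga5 (46.1). The lowest in all libraries were Pcdhgb5 (26.6) and Pcdhgc4 (24.7). Pcdhgc5, listed in wild type 1 and knockout 1 alone, had 8.23.

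The variable exons of this cluster are similar in sequence, so reads and peaks could be assigned to the wrong copy, and single gene values are uncertain. Pcdhga4 and Pcdhga9 had 19 and 16 peaks summed over the libraries. Part of the Pcdhga4 count is repeated listing, since peaks of this gene overlapped each other in all 4 libraries. The farthest peak of Pcdhgb1, about where its neighbour begins, overlapped the Pcdhga4 peak by 371, 360, 420 and 390 bp. The opposite strand also held a listed peak at 8, 6, 6 and 5 member peaks, all of them in Pcdhga7, Pcdhga8, Pcdhga10, Pcdhga11 or Pcdhgc3. The labels do not state that the libraries keep strand, and for these peaks the gene is uncertain.

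**Figure D4:**
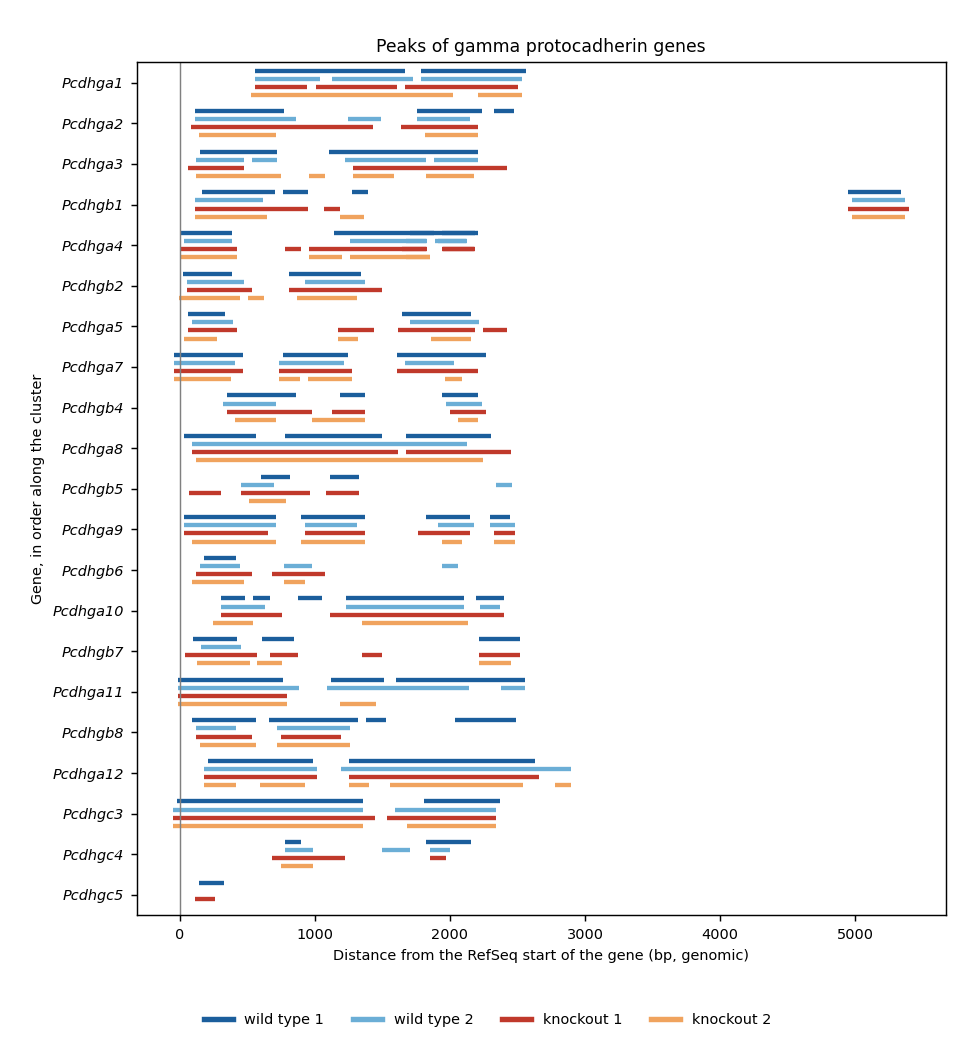
Peak spans of the 21 gamma protocadherin genes in order along the cluster, by library (colours), against the genomic distance in bp from each gene's RefSeq start (grey line). First peaks begin between 46 bp before and 778 bp after the start, and the peak of Pcdhgb1 past 4500 bp is the one that overlaps Pcdhga4.

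Col4a3bp, the member by name only, had a 5' UTR peak in wild type 2 and both knockout libraries with folds of 13.3, 12.8 and 31.4, and a 3' UTR peak of fold 7.23 in wild type 1. The protocadherins outside the gamma cluster were few and weak. Pcdh1 was listed in 3 libraries, with a coding peak of fold 48.4 in wild type 1 alone and a 3' UTR peak of folds 7.23, 10.4 and 11.2. Pcdhb2, of the beta cluster, was listed in both wild-type libraries and knockout 1 with folds of 7.23, 10.4 and 24.0. Pcdha6, Pcdha7 and Pcdh17 were each in 1 library, with folds of 8.81, 10.4 and 11.6. The contrast between the gamma genes and their alpha and beta neighbours, which have similar single large coding exons, is a count of listed genes and says nothing of their RNA levels.

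Between genotypes, member peaks numbered 107 ± 4.24 (SD, n = 2) in wild-type cells and 106.5 ± 9.19 (SD, n = 2) in knockout cells. The difference of -0.5 lay within the spread (two-sided exact permutation test, p = 1). With 2 libraries against 2, the smallest p this test allows is 0.333. Listed member genes numbered 51 ± 1.41 in wild-type cells, against 50 ± 1.41 in knockout cells (SD, n = 2 each; exact permutation p = 0.667). Only 1 member was listed in wild type 1 and 2 and in neither knockout library (1.59% of members, background 1.56%), and 3 had the opposite pattern (4.76%, background 2.27%).

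The gene in wild type only was Pcdh19, a delta protocadherin of the X chromosome, with a coding peak at chrX:133686709-133686888. Its folds were 10.8 and 7.4 at percentiles 17.5 and 0.879. The 3 genes in the knockout only were Itgb4, Col4a1 and Fat3. Itgb4 had a 3' UTR peak at chr11:116008292-116008412 with folds of 10.4 and 8.96 at percentiles 16.8 and 5.68. Col4a1 had 3' UTR peaks 869 and 779 bp from its RefSeq end with folds of 8.81 and 4.48 at percentiles 8.11 and 1.76. Fat3 had a coding peak with folds of 12.8 and 8.96 at percentiles 27.5 and 5.68. All 4 genes had weak peaks, none above percentile 27.5 of its list, and in the stronger 50% of each list 0 members followed the genotype in either direction. When 1 library is left out, a single library stands for its genotype and the counts rise by construction. Leaving out wild type 1, then wild type 2, knockout 1 and knockout 2 in turn, the wild-type-only genes numbered 2, 5, 3 and 4. The knockout-only genes numbered 3, 4, 3 and 6. Neither for these settings nor for the stronger 50% was the share over all genes computed, so these counts have no background.

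By region, in which overlapping peaks of the 4 lists were joined, the members had 129 regions. Of these 62 were in all libraries (48.1%, background 42.5%; 27 of 74, or 36.5%, without the gamma protocadherins), 1 was in wild type only (0.775%, background 2.02%) and 4 were in the knockout only (3.10%, background 2.51%). The regions that followed the genotype were those of Pcdh19, Itgb4, Col4a1 and Fat3, and a coding region of Pcdhga5 that began 1171 bp from its RefSeq start, with folds of 11.2 and 7.47 in the knockout libraries. Pcdhga5 itself had peaks in all libraries. With the libraries left out in the same order, the wild-type-only regions numbered 8, 15, 7 and 5 and the knockout-only regions 6, 9, 7 and 22. The 22 were counted with knockout 1, the longest list (12699 peaks), standing alone for its genotype. For these settings the share over all regions was not computed.

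By transcript part, the members differed from the lists as a whole. Peaks classed only as exon, with no transcript part given, made up 21.2%, 21.2%, 22.7% and 20.9% of all peaks and 1, 0, 2 and 0 member peaks. Coding sequence held 77.3%, 76.9%, 77.0% and 76.0% of member peaks and 35.5%, 35.6%, 33.7% and 36.5% of all peaks, or 45.0%, 45.2%, 43.5% and 46.1% of all peaks with a transcript part. The 3' UTR held 19.1%, 19.2%, 16.8% and 19.0% of member peaks and 38.6%, 38.4%, 38.7% and 38.2% of all peaks. Of all peaks with a transcript part it held 48.95%, 48.67%, 50.04% and 48.33%. Without the gamma protocadherins the coding share was 54.7%, 53.8%, 56.9% and 51.1%, and the 3' UTR share 39.6%, 38.5%, 32.8% and 40.4%. These 3' UTR shares were still below those of all peaks with a transcript part in every library. Without the Celsr and Fat genes as well, the coding share was 39.4%, 40.6%, 39.4% and 32.1% and the 3' UTR share 51.5%, 46.9%, 42.4% and 53.6%. This pooled coding share was below that of all peaks with a transcript part in every library, but it joined unlike families. Collagens and laminins, with few peaks each, lay above all peaks in coding share in every library. Other protocadherins did so in all but knockout 2. Integrins and Cdh cadherins lay on the other side, with 60.0% to 75.0% and 60.0% to 80.0% of their peaks in the 3' UTR. Between genotypes the coding share of member peaks was 77.1% ± 0.247 in wild-type cells, against 76.5% ± 0.701 in knockout cells (SD, n = 2 each; exact permutation p = 0.667). The 3' UTR share was 19.2% ± 0.0989 and 17.9% ± 1.55 (SD, n = 2 each; exact permutation p = 0.333, the smallest possible).

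**Figure D5:**
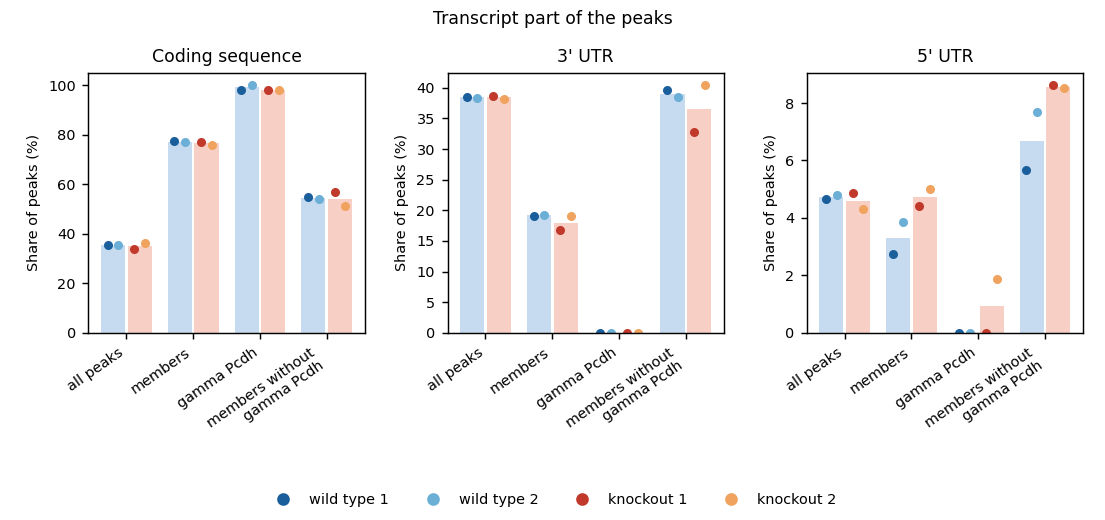
Share of peaks (percent) in coding sequence, 3' UTR and 5' UTR for all peaks, all members, gamma protocadherins and members without them; bars are means of 2 libraries (blue wild type, red knockout), points are libraries, and the 3 vertical scales differ. Member peaks lie above all peaks in coding sequence and below them in the 3' UTR in every library, and the gamma protocadherins have 0 in the 3' UTR.

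Members also carried more peaks per gene, 2.12, 2.08, 2.22 and 2.04 beside 1.51, 1.49, 1.52 and 1.49 over all genes. Genes with 3 or more peaks made up 28.8%, 30%, 31.4% and 28.6% of listed members and 10.9%, 10.2%, 11.4% and 10.3% of all listed genes. Both excesses rested on 2 families. Without the gamma protocadherins, members had 1.71, 1.73, 1.93 and 1.62 peaks per gene, and 12.9%, 16.7%, 23.3% and 13.8% of them had 3 or more. Without the Celsr and Fat genes as well, they had 1.27, 1.28, 1.38 and 1.22 peaks per gene, below all genes in every library, and 0 of 26, 1 of 25, 2 of 24 and 0 of 23 genes had 3 or more. The 3' UTR peaks of members ended a median of 1376, 1254, 962 and 1050 bp before the RefSeq end of the gene.

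Partners of these proteins outside the name rule were counted the same way. Of 78 genes, 48 had a peak and 33 of these 48 were in all libraries (68.8%, background 57.1%). Matrix genes had 9 of 14 listed, all 9 in all libraries, among them Nid2, a linker of basement membranes, with folds of 151, 46.6, 53.5 and 73.2, and fibronectin (Fn1), with folds of 4.11, 3.48, 10.6 and 2.41. Genes of collagen processing had 11 of 20 listed and 6 in all libraries, with Plod2, a lysyl hydroxylase of collagen, at folds of 135, 506, 346 and 146. Integrin adaptors had 10 of 18 listed and 7 in all libraries, among them Tln1, Vcl and Pxn. Catenins and junction partners had 7 of 12 listed and 6 in all libraries. Ctnnb1, the beta-catenin that binds the tail of E-cadherin, had folds of 256, 70.7, 149 and 69.3 at percentiles 97.6, 99.1, 99.5 and 96.6, so it ranked above Cdh1 in each list. Partners of Fat and Celsr had 11 of 14 listed and 5 in all libraries, with Fjx1, the mouse homologue of the fly kinase Four-jointed that modifies Fat and Dachsous, at folds of 862, 996, 694 and 426. In these lists 1 of the 48 listed partners followed the wild type (background 1.56%), Dchs1, a ligand of Fat cadherins, with folds of 7.23 and 8.88. The collagen chaperone Serpinh1 (folds 4.81 and 3.73) and Dvl3 (folds 16.8 and 12.0) followed the knockout, 2 of 48 (background 2.27%).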

How the data were processed

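Each library came with its own peak list, deposited as called in that library and not on pooled samples. Per the submitters' processing notes, HISAT2, HOMER and mm10 were named, with no role given. Which peak caller was used, with which settings and input, is not given in the sources used here. Per the file headers, a peak carries a gene, its transcript part, exon blocks, a p-value from the authors, scores that hold the log10 of that p-value before and after adjustment, and the ratio called fold enrichment. These deposited values are set side by side for the libraries but were ranked only among the peaks of 1 list. Peaks off the reference chromosomes (3 and 5 in the wild-type lists, 6 and 3 in the knockout lists) were left out.

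Peaks of a list were ranked by p-value as percentiles, with ties at their mean rank. Peaks sharing 1 bp or more of exon block, whatever the strand, were joined into regions. Presence was counted with no test, and 1 value per library was compared by an exact two-sided permutation test. Gene starts and ends came from a RefSeq table of GRCm38.p6, where 62 members matched by symbol and 1 (Col4a3bp) by synonym.

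The members, lists and tests were chosen with earlier results of these data known. Genes named were 20 set genes where listed (such as Cdh1, Itgb1, Lamc1 and Col4a1), the 4 strongest of each family in all libraries, all that followed a genotype, the 5 with most peaks, and up to 5 weak or single-library genes per family. The remaining members and the partners named were picked after their values were seen. The values of 1 member are not reported here. Alternatives were stricter p-values, the stronger 50% of lists, equal list lengths, other overlap rules, ranking by fold and leaving out each library. The counting was tested on simulated data. Python 3.11.15, numpy 2.4.6, pandas 2.3.3, scipy 1.17.1 and matplotlib 3.10.9 were used.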

Additional observations from a re-analysis of the deposited data

How the results depend on the processing

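Genes in all 4 libraries numbered 39, and 25 in the stronger 50% of each list or 19 without the gamma protocadherins. Regions in all libraries numbered 62, and 33 and 27 under the same settings. In the stronger 50%, 0 genes and 0 regions were wild-type-only and 0 genes and 0 regions knockout-only. Wild-type-only genes fell to 0 with lists of equal length. Wild-type-only regions rose to 2 with an adjusted p-value under 0.05 and to 4 with a reciprocal overlap of 50%. The difference in member peaks (-0.5) turned to 3.5 in the stronger 50% and to 0.5 with equal lists, and that in coding share (-0.602 points) to 4.03 and 0.115. Ranked by fold, the median mean percentile of the members was 56 in place of 49.3. Single-block peaks made up 92.7% of member peaks on average over the libraries. The share was 87.2% in the stronger 50% and 84.8% without the gamma protocadherin, Celsr and Fat genes. Over all peaks it was 89.0% and 89.3% in wild type 1 and 2, and 89.0% and 89.7% in knockout 1 and 2.

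Leaving out each library gave 39 to 42 genes in all libraries, 2 to 5 wild-type-only genes, 3 to 6 knockout-only genes, 65 to 69 regions in all libraries, 5 to 15 wild-type-only regions and 6 to 22 knockout-only regions. The difference in peaks ran from -7 to 6, in 3' UTR share from -2.35 to -0.161 and in coding share from -1.1 to -0.107 points. Shorter lists and fewer libraries change the counts by construction. Otherwise the cause was not tested. Under these settings no shares over all genes or regions were computed, so the counts have no background. The settings that leave out families or peaks classed only as exon, and the filters on strength and single-block share, were chosen after seeing the data. No paired analysis was possible because the wild-type titles carry no replicate numbers and no model was fitted. The share of peaks with GGAC was not run, since no genome sequence was used here. Depth per library is unknown, so it cannot be said which unlisted genes were within reach.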

Other observations

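Peaks of 1000 bases or more numbered 5 of 20, 3 of 20, 5 of 25 and 2 of 19 among those of Celsr and Fat genes, in the library order used above, beside 10.8%, 10.8%, 10.2% and 10.04% of all peaks. The longest member peak in each list was 1860, 2036, 1891 and 2670 bases, in Fat1, Pcdhga8, Celsr1 and Celsr1.

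The ranks of some partners of the adhesion genes differed widely between lists, for Hspg2 and Tns3 within each genotype. The best peak of Hspg2, the basement membrane proteoglycan perlecan, had percentiles of 40.6 and 94.8 in the wild-type lists and 44.2 and 94.4 in the knockout lists. Tns3, a tensin that links integrins to actin, had 99.4 and 54.4 in the wild-type lists and 51.6 and 99.1 in the knockout lists. Ctnnd1, the p120-catenin that binds cadherins, had 95.6 and 95.9 in the wild-type lists and 76.9 and 62.2 in the knockout lists. These genes were picked after their values were seen, and nothing was tested.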
